A study of Mus musculus with 4 samples.

Results

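The complement system is described here through 33 mouse genes in liver, chosen by name from the components, regulators and receptors of the cascade. All 33 were found by gene symbol among the 37315 gene rows of each deposited count file. General knowledge of where each protein is made in liver, not these libraries, put 19 of them in a hepatocyte-made class, 9 in a macrophage-made class and 5 in a class of other or mixed origin. RNA sequencing covered 2 groups of C57BL/6 mice aged 23 weeks, wild type and carriers of a mutation in Foxo1, with 2 liver libraries each. The mutation is labelled synonymous, which means that the coding sequence differs and the amino acid does not. Its position, the sex of the mice and whether the libraries of a group came from different animals are not given in the labels, so p-values measure the spread between libraries, which may be technical.

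Complement is a set of plasma and membrane proteins that tags microbes and debris and can pierce membranes. The classical pathway starts when C1q binds an antibody or another target, the lectin pathway starts when mannose-binding lectins or ficolins bind sugars, and the alternative pathway runs on C3 itself. All of them cleave C3, and the terminal components then assemble the membrane attack complex. Hepatocytes secrete most of the plasma components. Macrophages, which in liver are mainly the resident Kupffer cells, make C1q, and myeloid cells make properdin and carry the receptors for the cleaved fragments.

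The 4 libraries held between 73551737 and 95908652 counts. A total of 14657 genes were tested with edgeR's quasi-likelihood test, and 50 passed a Benjamini-Hochberg adjusted p below 0.05. Values below are normalised CPM, that is, counts relative to the library size after TMM scaling, and every fold change divides mutant by wild type. The level of Foxo1 is no check of the labels, since a synonymous change need not alter it.

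Of the 33 complement genes, 32 had enough counts to be tested, and 28 of the 32 had a positive log2 fold change, against 49.7% of all tested genes. C1qb and Cfp rose past the threshold, which is 2 of 32 members against 0.280% of all tested genes called higher and 0.341% called in either direction. In the lower direction 0 of the 32 passed in the main edgeR fit, in DESeq2 or in limma-voom. The shares of all tested genes called lower by these 3 tools were 0.0614%, 0.196% and 0.0136%. At an unadjusted p below 0.05 in edgeR 0 of the 32 were lower, against 2.22% of all tested genes. At an unadjusted p below 0.05 there were 11 members, all higher in mutant liver, whereas 3.97% of all tested genes were higher at that level. The mutant libraries lay above both wild type libraries for 15 members and below both for 2, and each of these patterns held for 17.0% of all tested genes. The median log2 fold change was 0.59 over the 9 macrophage-made members, 0.15 over the 19 hepatocyte-made members and −0.0013 over all tested genes.

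**Figure D1:**
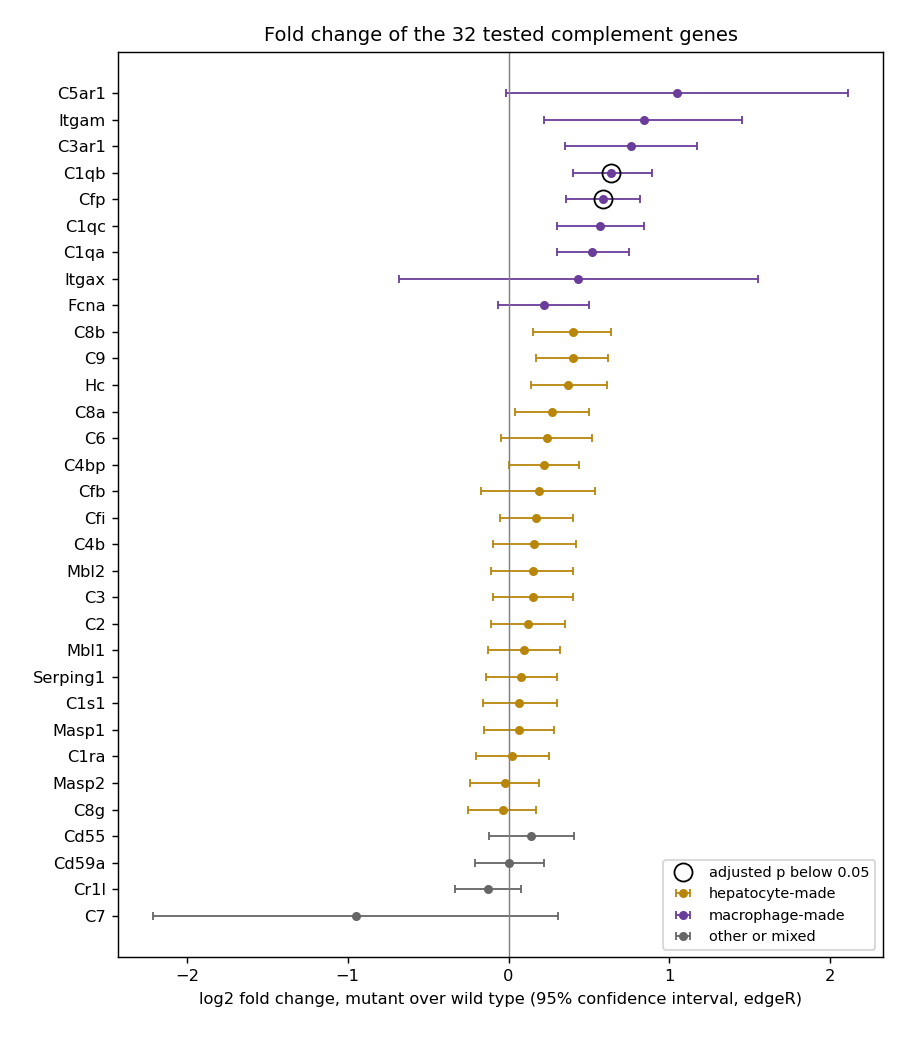
Log2 fold change of mutant over wild type for the 32 tested complement genes, with 95% confidence intervals from edgeR, coloured by the class of origin. Circled points are C1qb and Cfp, the 2 genes with an adjusted p below 0.05. All 9 macrophage-made genes lie to the right of 0, against 49.7% of all tested genes.

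C1q, the recognition molecule of the classical pathway, is built from the products of C1qa, C1qb and C1qc. The 3 genes lie side by side within 18.7 kb of mm10 chromosome 4 on the minus strand. C1qb (ENSMUSG00000036905, chromosome 4, 136880129 to 136886187) was at 26.7 and 29.1 CPM in the wild type libraries, against 38.9 and 48.3 CPM in the mutant libraries. It rose 1.56-fold (log2 fold change 0.64, SE 0.11, adjusted p in edgeR 0.0418). C1qa (chromosome 4, 136895917 to 136898803) was at 23.96 and 26.7 CPM in wild type against 34.4 and 38.5 CPM in the mutants. Both mutant libraries were above both wild type libraries, and the log2 fold change of 0.52 (SE 0.10) reached an adjusted p of 0.0614 in edgeR. C1qc (chromosome 4, 136889804 to 136893065) was at 22.2 and 24.6 CPM in wild type against 30.5 and 38.9 CPM in the mutants. Its groups did not overlap either, with a log2 fold change of 0.57 (SE 0.12, adjusted p in edgeR 0.13), and DESeq2 called all 3 genes. Mutant replicate 2 was the highest library for each of them.

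Within a library, the C1q genes can be set against each other per kilobase of exon. The level of C1qa was 0.939 and 0.962 times that of C1qb in the wild type libraries and 0.926 and 0.834 times in the mutant libraries. For C1qc the ratio to C1qb was 0.469 and 0.476 in wild type against 0.442 and 0.454 in the mutants. Both ratios were lower in the mutant libraries without overlap, and with 2 libraries against 2 an exact permutation test cannot give a two-sided p below 0.333.

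Properdin, the product of Cfp, stabilises the C3-cleaving enzyme of the alternative pathway and is made by myeloid cells. Cfp (ENSMUSG00000001128, mm10 chromosome X, 20925454 to 20931555, minus strand) was at 15.3 and 15.5 CPM in the wild type libraries, against 22.1 and 24.2 CPM in the mutant libraries. It rose 1.51-fold (log2 fold change 0.59, SE 0.10, adjusted p in edgeR 0.0405). The calls of C1qb and Cfp were lost when any 1 of the 4 libraries was left out. RLE or upper-quartile scaling called 2 members and 0.341% of genes. DESeq2 called 5 members and 0.811% of genes, omitting the low-count filter called 9 and 1.12%, the replicate block called 4 and 0.757%, and an adjusted p below 0.1 called 3 and 0.443%. A filter of 1 CPM, edgeR without robust estimation and limma-voom each called 0 members, against 0.208%, 0.0546% and 0.0478% of genes. Without wild type replicate 1 or 2 the members called were 0 against 0.0887% and 0.116% of genes, and without mutant replicate 1 or 2 they were 0 against 0.0205% and 0.102%. With single libraries left out the log2 fold change ranged from 0.48 to 0.79 for C1qb and from 0.52 to 0.65 for Cfp.

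The receptors were rare transcripts with the same sign. C3ar1, the receptor for the C3a fragment, was at 3.09 and 2.56 CPM in wild type against 4.97 and 4.61 CPM in the mutants (log2 fold change 0.76, SE 0.19, adjusted p in edgeR 0.181). C5ar1, the receptor for C5a, was at 0.398 and 0.235 CPM in wild type against 0.567 and 0.753 CPM in the mutants (1.05, SE 0.49, adjusted p in edgeR 0.822). Itgam, the alpha subunit of complement receptor 3, was at 0.989 and 0.858 CPM in wild type against 1.596 and 1.71 CPM in the mutants (0.84, SE 0.28, adjusted p in edgeR 0.506). These 3 receptors were higher in both mutant libraries than in both wild type libraries, a pattern held by 17.0% of all tested genes. None of the 3 passed. Itgax, the alpha subunit of complement receptor 4 and a dendritic cell marker, was at 0.301 and 0.595 CPM in wild type against 0.420 and 0.789 CPM in the mutants. Its groups overlapped (0.43, SE 0.51). In the mm10 annotation, 68.7% of the exon bases of Itgam are shared with Gm49368 on the same strand. Gm49368 has no row in the count files used here, and whether reads were lost to it was not tested.

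Fcna, the mouse ficolin A of the lectin pathway, was the macrophage-made member with the smallest fold change. It was at 16.7 and 16.2 CPM in wild type against 21.6 and 16.5 CPM in the mutants, with a log2 fold change of 0.22 (SE 0.13, adjusted p in edgeR 0.951). Mutant replicate 1 stood above the other 3 libraries, and without it the log2 fold change was 0.0095.

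**Figure D2:**
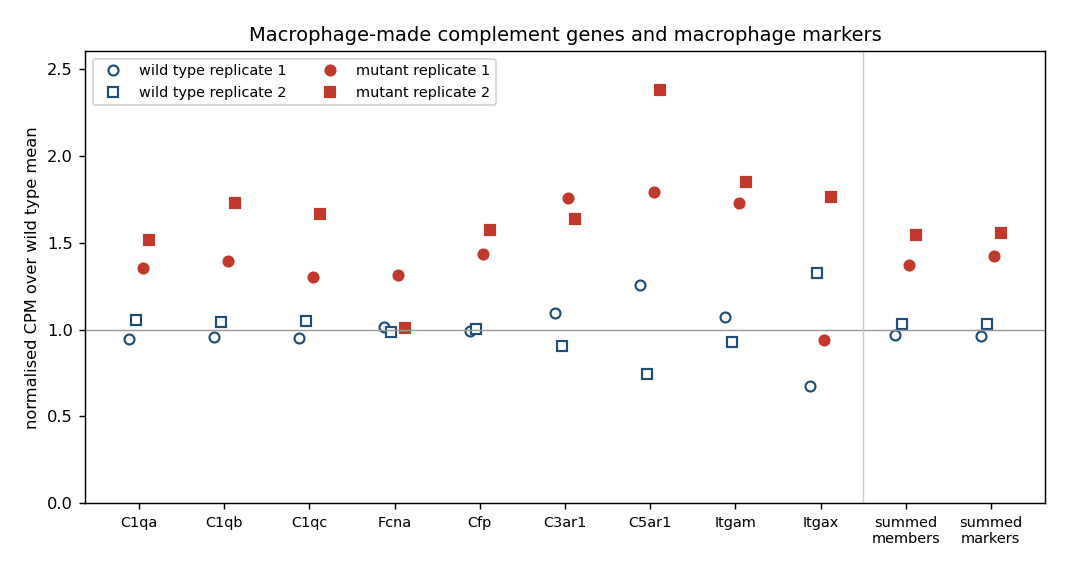
Normalised CPM of the 9 macrophage-made complement genes, of their sum and of the summed macrophage markers, each divided by its wild type mean, with 1 point per library. The mutant points lie above both wild type points for 7 of the 9 genes, a pattern held by 17.0% of all tested genes. They also lie above them for both sums, and overlap them for Fcna and Itgax.

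Macrophage markers moved with these genes. None of the 20 markers is a complement member counted above. All 20 had log2 fold changes above 0, against 49.7% of all tested genes, and the median was 0.60. In 18, both mutant libraries lay above both wild type libraries, a pattern held by 17.0% of all tested genes. The groups overlapped for Cd163 and Aif1. Marco had the highest log2 fold change (1.34, SE 0.67), with 15.26 CPM in mutant replicate 1 and 6.36 CPM in mutant replicate 2. Of the 20, 6 rose past the threshold, against 0.280% of all tested genes. Lyz2 (lysozyme), Csf1r (the macrophage growth factor receptor) and Cybb (a phagocyte oxidase subunit) had log2 fold changes of 0.76, 0.66 and 0.78, with edgeR adjusted p of 0.00509, 0.0109 and 0.0109. Summed over the list, the markers were at 500.9 and 536.5 CPM in wild type against 738.7 and 806.6 CPM in the mutants, 1.49 times higher on average. Slc40a1, the most abundant of the 20, held 113.6 and 108.1 CPM of that sum in wild type against 125.7 and 144.1 CPM in the mutants (log2 fold change 0.28). The 9 macrophage-made complement genes summed to 109.6 and 116.4 CPM in wild type against 155.0 and 174.3 CPM in the mutants, 1.46 times higher. Relative to the marker sum, their sum stood at 0.219 and 0.217 in wild type against 0.210 and 0.216 in the mutants. The groups did not overlap, but 0.217 and 0.216 were nearly equal and the mean ratio in the mutants was 0.977 times that in wild type. An exact permutation test of 2 against 2 libraries cannot reach a two-sided p below 0.333. For the C1q genes together the ratio was 0.146 and 0.150 in wild type against 0.140 and 0.156 in the mutants, and for Cfp it was 0.0305 and 0.0289 in wild type against 0.0299 and 0.0300 in the mutants. The ratios of C1q and of Cfp to the markers overlapped between the groups, whereas that of Fcna was 0.0333 and 0.0302 in wild type against 0.0292 and 0.0205 in the mutants. The sinusoidal endothelial, stellate and fibroblast, and cholangiocyte lists had median log2 fold changes of −0.041, −0.068 and −0.063. Among their tested genes 2 of 12, 4 of 12 and 0 of 7 were above 0, against 49.7% of all tested genes. Erythroid markers moved like the macrophage markers, and lymphocyte markers went both ways. All 6 erythroid markers tested had log2 fold changes above 0, with 0.49 as the median. The erythroid list summed to 238.8 and 266.7 CPM in wild type against 296.3 and 335.1 CPM in the mutants. Hbb-bt, a beta globin gene with a close paralog, rose past the threshold (log2 fold change 0.79, SE 0.12, adjusted p in edgeR 0.0145). Of 12 lymphocyte markers 8 had log2 fold changes above 0 and 4 below, from −1.3 to 2.66, with a median of 0.54. Both mutant libraries lay above both wild type libraries for 4 of the 12 and below both for 1. Each of these patterns held for 17.0% of all tested genes. Ptprc, which all leukocytes carry, rose past the threshold (0.77, SE 0.14, adjusted p in edgeR 0.0405). Cd3g, a T cell receptor component and the highest fold change of the list, rested on few counts. It had 5 and 5 counts in wild type against 47 and 28 in the mutants (2.66, SE 0.68, adjusted p in edgeR 0.207). The lymphocyte list summed to 16.8 and 29.4 CPM in wild type against 24.6 and 18.6 CPM in the mutants, so these sums overlapped. The part of blood cells in the macrophage-made values was not tested. In bulk RNA a larger number of macrophages and more of these transcripts per macrophage cannot be told apart.

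Cfp, Itgam and C5ar1 are also used by neutrophils, and Itgax by dendritic cells. The 8 neutrophil markers summed to 2.76 and 3.34 CPM in wild type against 4.18 and 3.92 CPM in the mutants, of which Csf3r alone held 2.12 to 2.94 CPM. Of the 4 that could be tested, 0 passed in edgeR, against 0.341% of all tested genes. The median log2 fold change of these 4 was 0.75. At an unadjusted p below 0.05 there were 2, both higher, against 3.97% of all tested genes higher at that level. These 2 were S100a8 and S100a9, the calprotectin subunits, with log2 fold changes of 1.55 (SE 0.65) and 1.27 (SE 0.47). Both were higher in both mutant libraries than in both wild type libraries, a pattern held by 17.0% of all tested genes. Ly6g, a defining neutrophil gene, had 1 count in 1 library and 0 in the others. The 8 dendritic markers summed to 8.07 and 8.61 CPM in wild type against 8.49 and 7.30 CPM in the mutants. Of the 6 tested, 0 passed the threshold in edgeR, against 0.341% of all tested genes. At an unadjusted p below 0.05 there were 0, against 3.97% of all tested genes higher and 2.22% lower. The part of these cells in the results for Cfp and the receptors was not tested.

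Promoter sequence from RefSeq (GRCm38.p6, which is mm10) was matched for 26 of the 33 members. The 250 bases before the annotated start were searched on both strands for GAGGAA, a core bound by the myeloid factor PU.1, for the Foxo sites GTAAACA and CAAAACA, and for the STAT site TTCNNNGAA. GAGGAA and the Foxo sites do not contain one another, but a TTCNNNGAA site can contain GAGGAA. The TTCNNNGAA matches found here did not. GAGGAA was present in 4 of 8 macrophage-made members (C1qb, C1qc, Fcna and Itgam), in 0 of 13 hepatocyte-made members, in 1 of 5 members of other or mixed origin (Cd59a) and in 23.3% of all 32851 promoter windows in the table. GTAAACA and CAAAACA were present in 0 of the 26 members, and in 3.17% and 5.56% of all windows. TTCNNNGAA was found in C8a, Masp2 and C7, and in 7.02% of all windows. The 26 members had 28 windows and are counted per gene, whereas the shares of all windows are counted per window. A match is a description of the letters only. The 4 promoters below belong to the 2 members that rose and to the 2 hepatocyte-made members of lowest p, described further on; each is written 5′ to 3′ along the gene's strand, and capitals mark GAGGAA, which among these 4 occurs only in that of C1qb. The C9 window is printed as 231 bases, because its last 19 bases lie inside the annotated gene.
C1qb, minus strand, chr4:136886201-136886450: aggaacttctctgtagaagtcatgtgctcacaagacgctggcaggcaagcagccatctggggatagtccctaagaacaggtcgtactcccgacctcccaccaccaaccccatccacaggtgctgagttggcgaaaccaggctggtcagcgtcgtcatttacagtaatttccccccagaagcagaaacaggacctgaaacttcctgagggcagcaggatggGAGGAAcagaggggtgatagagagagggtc
Cfp, minus strand, chrX:20931556-20931805: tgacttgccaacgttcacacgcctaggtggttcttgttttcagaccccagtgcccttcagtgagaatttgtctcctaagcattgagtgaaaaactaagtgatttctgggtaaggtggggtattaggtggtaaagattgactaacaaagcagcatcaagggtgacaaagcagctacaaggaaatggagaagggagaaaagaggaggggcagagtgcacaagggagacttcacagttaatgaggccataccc
C8b, plus strand, chr4:104766067-104766316: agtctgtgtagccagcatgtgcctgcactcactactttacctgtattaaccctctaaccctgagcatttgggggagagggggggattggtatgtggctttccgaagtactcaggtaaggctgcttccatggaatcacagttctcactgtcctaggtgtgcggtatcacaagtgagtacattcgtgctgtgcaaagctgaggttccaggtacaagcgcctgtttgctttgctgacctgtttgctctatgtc
C9, plus strand, chr15:6445096-6445326: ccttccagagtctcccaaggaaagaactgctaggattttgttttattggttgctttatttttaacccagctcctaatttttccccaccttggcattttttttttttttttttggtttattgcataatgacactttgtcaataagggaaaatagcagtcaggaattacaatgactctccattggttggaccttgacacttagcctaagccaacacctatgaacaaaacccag

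Of the 19 hepatocyte-made members, 0 passed in edgeR, against 0.341% of all tested genes, and the 4 of lowest p belong to the terminal pathway. At an unadjusted p below 0.05 there were 5, all higher, against 3.97% of all tested genes higher at that level. DESeq2 called C9, against 0.811% of genes, and limma-voom called 0, against 0.0478%. Without the low-count filter edgeR called C8b, C9 and Hc, against 1.12% of genes. C9, which polymerises into the pore of the membrane attack complex (ENSMUSG00000022149, mm10 chromosome 15, 6445327 to 6498751), was at 773.8 and 720.0 CPM in wild type against 986.1 and 983.3 CPM in the mutants. The difference was 1.32-fold, with a log2 fold change of 0.40 (SE 0.10, adjusted p in edgeR 0.217). Hc, the mouse gene of C5, was at 1284.7 and 1277.9 CPM in wild type against 1552.0 and 1766.4 CPM in the mutants (0.37, SE 0.11, adjusted p in edgeR 0.335). The wild type libraries of Hc were nearly equal and both mutant libraries lay above them. C6, which joins C5b, was at 422.1 and 328.6 CPM in wild type against 466.8 and 417.8 CPM in the mutants, and its groups overlapped (0.24, SE 0.13, adjusted p in edgeR 0.917).

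C8 is assembled from 3 chains, and their transcripts are described in turn. C8a was at 782.7 and 714.9 CPM in wild type against 877.3 and 930.2 CPM in the mutants (log2 fold change 0.27, SE 0.11, adjusted p in edgeR 0.663). C8b, its neighbour on chromosome 4, was at 409.2 and 359.6 CPM in wild type against 535.6 and 475.4 CPM in the mutants (0.40, SE 0.11, adjusted p in edgeR 0.312). Both were higher in both mutant libraries than in both wild type libraries, a pattern held by 17.0% of all tested genes. C8g, a lipocalin on chromosome 2, was at 201.8 and 215.3 CPM in wild type against 205.1 and 202.0 CPM in the mutants, with a log2 fold change of −0.035 (95% confidence interval −0.25 to 0.17). Per kilobase of exon, C8b stood at 1.19 and 0.98 times the level of C8g in wild type and at 1.53 and 1.38 times in mutant liver. For C8a the ratio to C8g was 1.59 and 1.36 in wild type against 1.76 and 1.89 in the mutants. The groups did not overlap in either ratio, and an exact permutation test of 2 against 2 libraries cannot reach a two-sided p below 0.333.

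**Figure D3:**
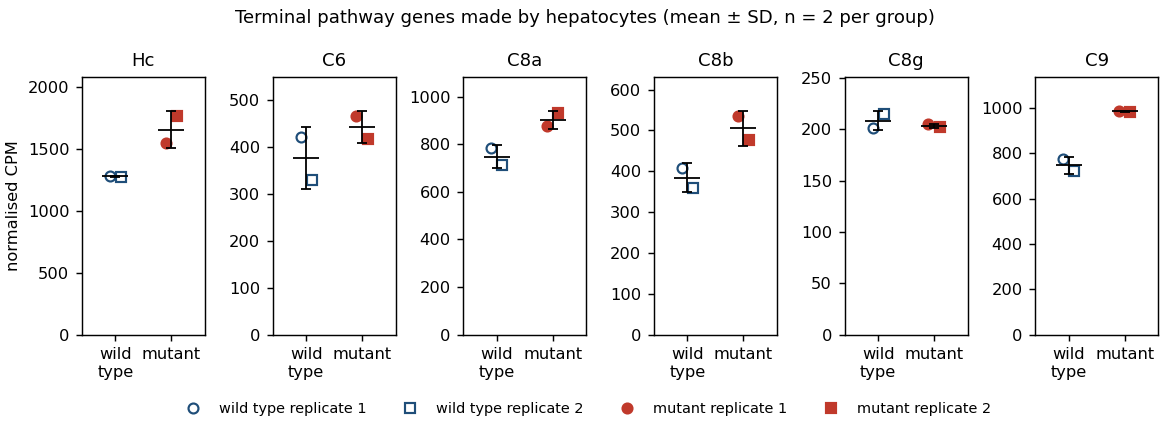
Normalised CPM of the 6 terminal pathway genes made by hepatocytes in each library, with the mean ± SD of each group (n = 2) as black bars. The mutant points of Hc, C8a, C8b and C9 lie above both wild type points, a pattern held by 17.0% of all tested genes. Those of C6 and C8g overlap the wild type points.

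C3, the hub of the cascade, was the most abundant member. It was at 7334.2 and 6196.3 CPM in wild type against 7862.4 and 7155.7 CPM in the mutants, and its groups overlapped (log2 fold change 0.15, SE 0.11, adjusted p in edgeR 0.988). It took 41.8% to 46.1% of the summed CPM of the 33 genes in the wild type libraries and 41.3% to 44.4% in the mutant libraries. Together the 33 genes held 1.63% and 1.45% of all counts in wild type and 1.76% and 1.74% in mutant liver. Factor B, the product of Cfb and the C3-cleaving protease of the alternative pathway, was counted at 5.16 to 6.98 CPM in the 4 libraries (0.19, SE 0.16). C2, its counterpart in the classical and lectin pathways, was counted at 14.4 to 16.2 CPM (0.12, SE 0.11). In the mm10 annotation Gm20547 shares 79.5% of the exon bases of Cfb and 42.8% of those of C2 on the same strand, and Gm20547 had 0 counts in all 4 libraries. The levels of Cfb and C2 are therefore uncertain.

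None of the other classical and lectin components had an unadjusted p below 0.05. C4b, the most abundant of these per kilobase after Mbl2, was at 1121.3 and 1282.2 CPM in wild type against 1236.3 and 1453.7 CPM in the mutants (log2 fold change 0.16, SE 0.12, adjusted p in edgeR 0.979). C4b has a near-identical paralog, C4a, with which reads may be shared. C1ra and C1s1, the proteases bound to C1q, had log2 fold changes of 0.024 (95% confidence interval −0.20 to 0.25) and 0.068 (−0.16 to 0.30). Mbl2, a mannose-binding lectin, was at 260.2 and 226.9 CPM in wild type against 295.4 and 244.7 CPM in the mutants (0.15, SE 0.12, adjusted p in edgeR 0.993). Mbl1, Masp1 and Masp2, the second lectin and the proteases of the pathway, had log2 fold changes of 0.094, 0.063 and −0.025, and their groups overlapped. The exons of Masp2 share 54.9% of their bases with Tardbp on the opposite strand. Those of C1s1 share 18.4% with Gm16567, also on the opposite strand, which had 0 counts in all 4 libraries. How strand was handled is not given in the sources used here, so the levels of Masp2 and C1s1 are uncertain.

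Regulators keep the cascade in check in plasma and on host cells. C4bp, which binds C4b and serves factor I as a cofactor, was at 463.5 and 480.8 CPM in wild type against 558.6 and 543.6 CPM in the mutants (log2 fold change 0.22, SE 0.10, adjusted p in edgeR 0.795). Cfi, the protease factor I, was at 571.9 and 615.0 CPM in wild type against 685.7 and 650.9 CPM in the mutants (0.17, SE 0.10, adjusted p in edgeR 0.951). Serping1, the C1 inhibitor, was the regulator of highest level per kilobase, at 836.2 and 862.2 CPM in wild type against 870.7 and 923.3 CPM in the mutants (0.079, SE 0.10, adjusted p in edgeR 1.0). In all 3 secreted regulators the mutant libraries were above both wild type libraries, a pattern held by 17.0% of all tested genes. The increases in these 3 were 5.62% to 16.7%, and none of them passed the threshold. The membrane regulators Cd55, Cd59a and Cr1l, which protect cells that carry them, had log2 fold changes of 0.14 (SE 0.12), 0.0047 (SE 0.10) and −0.13 (SE 0.095). Cd59a and Cd55 have close paralogs and their levels are uncertain.

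Over the 19 hepatocyte-made members, 17 had a positive log2 fold change, against 49.7% of all tested genes. In 8 of the 19, both mutant libraries lay above both wild type libraries, a pattern held by 17.0% of all tested genes, and in 0 they lay below both. Their sum was 15685.5 and 14566.7 CPM in wild type against 17416.1 and 17054.6 CPM in the mutants, 1.14 times higher on average. Beside these stand the 20 hepatocyte markers. Their sum was 134599.2 and 150144.8 CPM in wild type against 134314.8 and 132263.1 CPM in the mutants. Alb alone held 71490.5 and 80683.6 CPM of that sum in wild type against 67919.4 and 64770.9 CPM in the mutants (log2 fold change −0.2). Over these 20 genes the median log2 fold change was 0.039, with 13 positive and 7 negative. Of 28 acute phase genes, which hepatocytes induce in inflammation, 26 had log2 fold changes above 0, against 49.7% of all tested genes. The list median was 0.31. Orm2, Apcs and Fgl1 of that list rose past the threshold (log2 fold changes of 1.99, 0.54 and 0.91, edgeR adjusted p of 0.0011, 0.0312 and 0.0109). That is 3 of 28 genes, against 0.280% of all tested genes called higher. The part of an acute phase response in the hepatocyte-made complement values was not tested.

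Cfd and C7 were near the limit of detection. Cfd encodes factor D (adipsin), the protease that activates factor B and is made chiefly by adipocytes in mice. Its reads numbered 32 and 3 in wild type against 1 and 0 in the mutants, and it was not tested in the main fit. Without the low-count filter edgeR called it lower, against 1.12% of all genes called in either direction there. The 32 counts were all in wild type replicate 1. A count of 0 allows up to 0.0359 CPM in mutant replicate 2, for counting error only. The adipocyte genes Adipoq and Plin1 had 0 counts in all 4 libraries, whereas Adig had 5 counts and Retn 2 counts in wild type replicate 1 and 0 in the mutant libraries. The 8 adipocyte markers summed to 5.08 and 5.51 CPM in wild type against 5.30 and 5.79 CPM in the mutants, nearly all of it from Fabp4 (3.45 to 3.97 CPM) and Cidec (1.37 to 2.20 CPM), which other liver cells also express. The other 6 markers had 0 to 5 counts in the wild type libraries and 0 in both mutant libraries, and the part of adipocyte RNA in the Cfd counts was not tested. C7, which binds to the C5b and C6 complex and has sources outside hepatocytes, had 51 and 29 counts in wild type and 36 and 12 in mutant liver (log2 fold change −0.95, SE 0.58, adjusted p in edgeR 0.957).

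**Figure D4:**
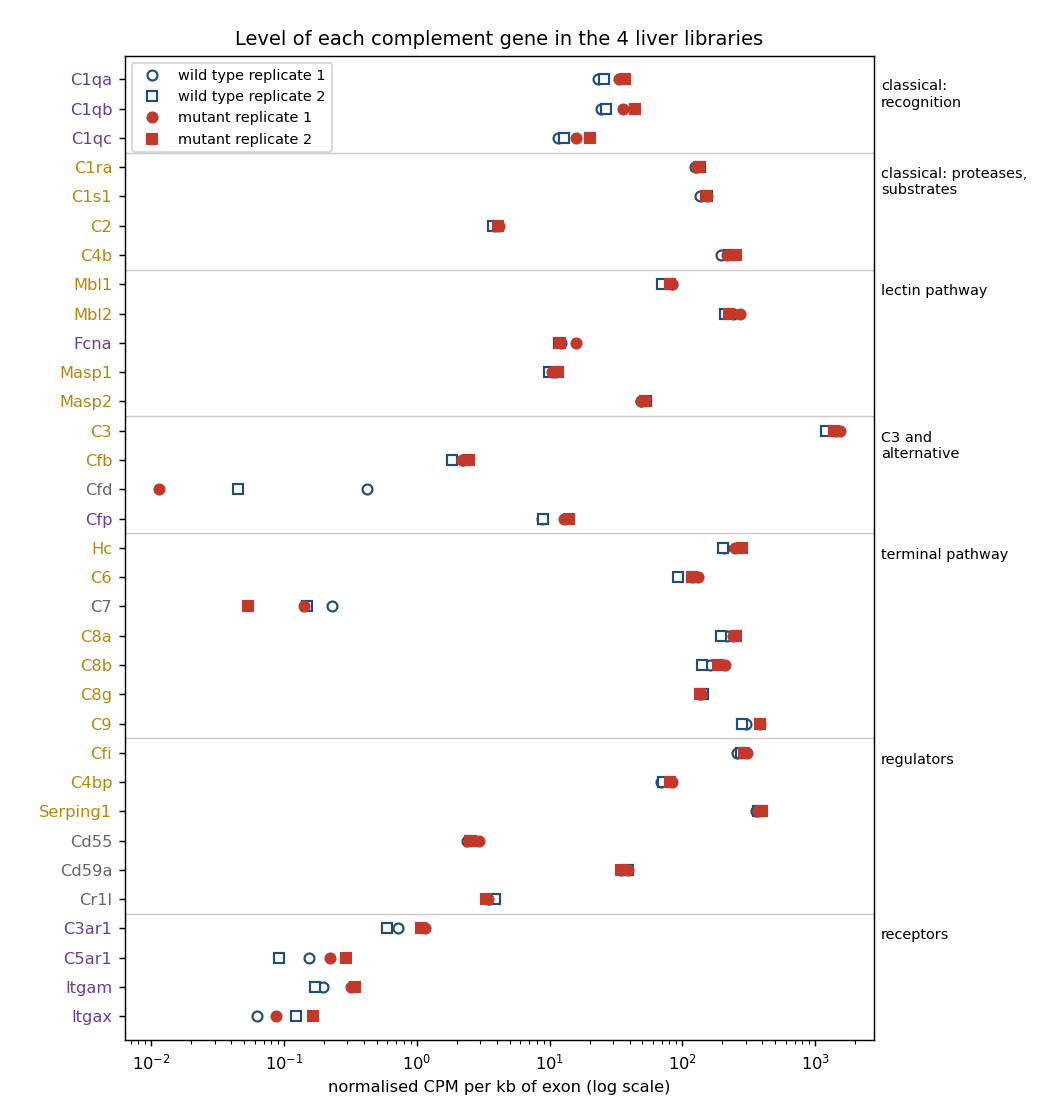
Level of each of the 33 complement genes per kilobase of exon, as normalised CPM per kb on a log axis, with 1 point per library and genes ordered by role. Gene names are purple for macrophage-made, ochre for hepatocyte-made and grey for other or mixed origin, the 0 of Cfd in mutant replicate 2 cannot be drawn, and C3 is the highest gene.

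Per kilobase of exon, levels spanned several orders of magnitude. Averaged over the 4 libraries, C3 stood at 1387.7 CPM per kb, followed by Serping1 at 375.5, C9 at 338.7, Cfi at 284.2 and Mbl2 at 235.8 CPM per kb. The macrophage-made members were lower, from C1qb at 32.8 CPM per kb to Itgax at 0.110 CPM per kb. The mean level of C1qb per kb was thus below that of its partner proteases C1ra (131.0) and C1s1 (148.7), which are secreted by hepatocytes.

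A further 26 complement genes outside the 33 were listed, of which 25 had a row and 20 were tested. In edgeR 0 passed the threshold, against 0.341% of all tested genes. At an unadjusted p below 0.05 there were 3, all higher, against 3.97% of all tested genes higher at that level. DESeq2 and limma-voom called 1 and 0, against 0.811% and 0.0478% of genes. The median log2 fold change of the 20 was 0.075, with 11 positive and 9 negative. The 3 were Vsig4, the complement receptor of Kupffer cells, which was at 25.5 and 31.6 CPM in wild type against 39.5 and 49.2 CPM in the mutants (log2 fold change 0.63, SE 0.14, adjusted p in edgeR 0.180), Itgb2, the beta chain that pairs with Itgam and Itgax (0.45, SE 0.15), and C4a (0.20, SE 0.092). Vsig4 and Itgb2 are myeloid genes. They were higher in both mutant libraries than in both wild type libraries, a pattern held by 17.0% of all tested genes.

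**Figure D5:**
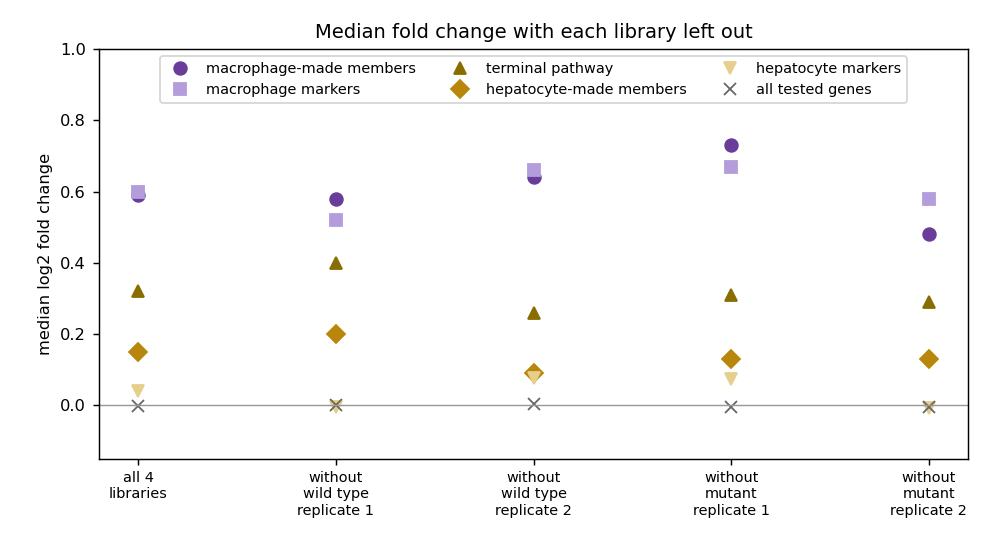
Median log2 fold change of the macrophage-made and hepatocyte-made members, the 6 hepatocyte-made terminal pathway genes, the marker lists and all tested genes, with all 4 libraries and with each library left out. The macrophage-made median stays between 0.48 and 0.73 and the hepatocyte-made median between 0.091 and 0.20.

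With single libraries left out, the median of the macrophage-made members ran from 0.48 to 0.73 and that of the macrophage markers from 0.52 to 0.67. The terminal pathway median, 0.32 with all libraries, ran from 0.26 to 0.40. For the whole hepatocyte-made class the median was 0.15, and it ranged from 0.091 without wild type replicate 2 to 0.20 without wild type replicate 1.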

How the data were processed

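Liver RNA was extracted with TRIzol, poly(A) RNA was isolated with Dynabeads and libraries were made from about 100 ng of mRNA with a TruSeq RNA kit and read in pairs of 150 bp, per the labels' protocols. Each library has 1 file of whole-number counts by Ensembl identifier, as deposited by the authors, with no normalisation or pooling visible in the values. TopHat2 2.1.1, HTSeq 0.6.0 and mm10 are named in the submitters' processing notes; how reads were assigned, with which strand setting and annotation, is not given in the sources used here. Files held 37315 genes and no summary rows, and 95.0% of identifiers had a symbol. Gene models, exon lengths and overlaps come from GENCODE M21 for the same build.

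Genes were kept with filterByExpr (minimum count of 10), scaled by TMM and tested with edgeR 4.0.16 (glmQLFit, glmQLFTest, robust) in R 4.3.3, with group as the only term and Benjamini-Hochberg adjustment over all 14657 genes. The SE of a log2 fold change was taken as its size divided by the square root of the F statistic. Alternatives were other scalings and filters, DESeq2 1.42.0, limma-voom (limma 3.58.1), no robust estimation, a block for replicate number, fits without 1 library and an adjusted p of 0.1. On simulated data for this comparison (14657 genes, 200 changed, 5 sets) edgeR recovered 68.1% of 2-fold and 33.0% of 1.5-fold changes, and 17.5% of calls were false, above the nominal rate of 0.05. No pair of libraries was a repeat deposit, since the chi-square per gene between them was 61.8 to 108. A floor of 3 counts, which speaks to counting error alone, equals 0.0313 to 0.0408 CPM. The members and lists were chosen with earlier results of these data known, so no test over a list is given. Values in every library are given for members with an unadjusted p below 0.05, for the C1q genes, Cfp and the receptors, and for the most abundant member per kilobase of each role; of other lists, at most 4 genes of lowest p are named, besides Orm2, Apcs and Fgl1 and markers of single cell types, which were chosen after their values were seen.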

Additional observations from a re-analysis of the deposited data

How the results depend on the processing

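The number of complement members past the threshold was 2 with TMM, RLE or upper-quartile scaling, 9 with no filter on low counts (8 higher, and Cfd lower), 5 with DESeq2, 3 at an adjusted p of 0.1, and 0 when 1 CPM in 2 libraries was required, without robust estimation, with limma-voom and with any 1 library left out (0 to 0). For all genes, where 50 passed, the counts were 258 with no filter, 24 with a filter of 1 CPM, 112 with DESeq2, 7 with limma-voom and 8 without robust estimation, and 3 to 17 with 1 library left out. C1qb and Cfp had adjusted p of 0.0632 and 0.0541 with the 1 CPM filter, 0.137 and 0.103 without robust estimation and 0.151 and 0.122 with limma-voom.

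With the replicate number as a block, 111 genes and 4 members (C1qa, C1qb, C1qc and Cfp) passed. Deviations of same-numbered libraries were not correlated (−0.0072), so the numbers were not taken to pair the samples, and the block has no basis in the labels.

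The macrophage-made median log2 fold change ranged from 0.48 to 0.73 and the hepatocyte-made one from 0.091 to 0.20 with 1 library left out. The sign turned for 8 members of small or rare signal in these fits: C1ra (−0.028 to 0.079), C1s1 (−0.019 to 0.16), Mbl1 (−0.031 to 0.23), Masp1 (−0.020 to 0.15), Masp2 (−0.081 to 0.033), C8g (−0.081 to 0.012), Cd59a (−0.089 to 0.093) and Itgax (−0.087 to 1.0). The other 24 tested members kept their sign in the alternatives in which they were tested; C7 and C5ar1 did not pass the filter of 1 CPM and have no value there. The cause of these changes was not tested. With 2 libraries a group, the lone library of a reduced group is assumed to vary like the other pair, and receptor transcripts rest on few counts.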
